A study of Mus musculus with 6 samples.

Results

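The 40 genes described here encode the enzymes of glycolysis, the transporters that carry glucose and lactate across the cell membrane, the oxygen-sensing machinery built around the hypoxia-inducible factors (HIF), and genes that HIF is known to switch on. They were chosen by gene symbol, with earlier results of these data known. All 40 were found in the table, among 49568 symbols in all. Of these symbols, 19199 had enough counts to be tested, the 40 genes among them. Bulk RNA-sequencing was performed on the whole lung of 3 TNF+ and 3 TNF- mice, all female, 4 months old and on a C57BL/6 background. TNF+ mice are the TNF-Tg model, which overexpresses the human TNF gene from a single inserted copy and develops both erosive arthritis and pulmonary hypertension. TNF- mice are WT littermates without the transgene. A library was made per mouse from poly(A) RNA of the unsorted organ. A rise or fall in a gene can therefore come from a change in the number of cells of a type or in RNA per cell. These cannot be told apart here.

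Glycolysis splits glucose into pyruvate and yields ATP without oxygen. Its upper steps spend ATP to trap and prime the sugar, its lower steps pay ATP back, and lactate dehydrogenase turns pyruvate into lactate, which leaves the cell through monocarboxylate transporters. When oxygen is plentiful, prolyl hydroxylases of the Egln family mark the HIF alpha subunits for destruction by the Vhl ubiquitin ligase. When oxygen is scarce, or when inflammatory signals raise HIF by other routes, the alpha subunits pair with Arnt and bind a short DNA core in the promoters of glycolytic and vascular genes. In the lung, Hif1a is found in many cells including macrophages, whereas Epas1 (HIF-2 alpha) is best known from the endothelium. Activated macrophages are a textbook example of cells that lean on glycolysis.

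HIF binds a core that reads ACGTG or GCGTG, so both words were looked up on both strands in the RefSeq promoters of GRCm38.p6, windows of 300 bases of which 250 lie before the transcription start. A promoter was found for 37 of the 40 genes, with 51 promoters in all, and none was used for Epas1, Slc2a3 and Ndrg1. ACGTG stood in at least 1 promoter of 24 of the 37 genes (64.9%), against 27.3% of the 12148 tested genes with a promoter. Counted by promoter, it stood in 27 of the 51 (52.9%), against 19.6% of all 32851 promoters. Either word stood in 33 of the 37 genes (89.2%), against 63.3% of the tested genes. ACGTG was present in 10 of 17 genes that were higher in TNF+ lungs, in 6 of 7 that were lower and in 8 of 13 that did not pass the test. Many of the 40 genes are textbook HIF targets, so their share is a description of the list and not an independent result. The promoters below belong to 4 genes that rose (the transporters Slc2a1 and Slc16a3, the hexokinase Hk3 and the HIF target Ankrd37) and 2 that fell (the lactate transporter Slc16a1 and the collagen hydroxylase P4ha1). They are shown because the core occurs on either side of the response. Capitals mark each match to ACGTG or GCGTG or to its reverse complement (CACGT for the former and CACGC for the latter), and matches that overlap are run together. Slc2a1 is read from chr4:119108495-119108794 (plus strand), Slc16a3 from chr11:120948817-120949116 (plus strand), Hk3 from chr13:55021336-55021635 (minus strand), Ankrd37 from chr8:45999801-46000100 (minus strand), Slc16a1 from chr3:104638414-104638713 (plus strand) and P4ha1 from chr10:59323046-59323345 (plus strand).
Slc2a1: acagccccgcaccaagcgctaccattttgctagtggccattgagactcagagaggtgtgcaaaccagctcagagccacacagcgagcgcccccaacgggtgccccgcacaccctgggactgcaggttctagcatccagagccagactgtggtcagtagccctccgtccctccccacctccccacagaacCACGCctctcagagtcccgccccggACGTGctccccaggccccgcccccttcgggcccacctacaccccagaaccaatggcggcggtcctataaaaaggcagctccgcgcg
Slc16a3: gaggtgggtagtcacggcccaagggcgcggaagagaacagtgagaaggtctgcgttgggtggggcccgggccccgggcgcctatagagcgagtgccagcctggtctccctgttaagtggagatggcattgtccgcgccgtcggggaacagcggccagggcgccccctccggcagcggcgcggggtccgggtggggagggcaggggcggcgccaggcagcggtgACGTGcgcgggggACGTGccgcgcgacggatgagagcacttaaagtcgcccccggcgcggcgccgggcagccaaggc
Hk3: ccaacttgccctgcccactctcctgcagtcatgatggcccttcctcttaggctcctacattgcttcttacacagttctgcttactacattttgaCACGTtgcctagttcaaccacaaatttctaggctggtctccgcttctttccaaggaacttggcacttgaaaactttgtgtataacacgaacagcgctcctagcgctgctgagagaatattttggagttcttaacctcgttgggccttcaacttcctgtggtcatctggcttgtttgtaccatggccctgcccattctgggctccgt
Ankrd37: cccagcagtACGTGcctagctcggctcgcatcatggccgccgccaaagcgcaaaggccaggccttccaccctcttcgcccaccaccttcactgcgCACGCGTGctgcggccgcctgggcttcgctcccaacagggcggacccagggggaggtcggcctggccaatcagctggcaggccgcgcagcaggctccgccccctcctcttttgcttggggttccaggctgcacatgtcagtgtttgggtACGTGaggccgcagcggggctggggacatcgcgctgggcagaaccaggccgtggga
Slc16a1: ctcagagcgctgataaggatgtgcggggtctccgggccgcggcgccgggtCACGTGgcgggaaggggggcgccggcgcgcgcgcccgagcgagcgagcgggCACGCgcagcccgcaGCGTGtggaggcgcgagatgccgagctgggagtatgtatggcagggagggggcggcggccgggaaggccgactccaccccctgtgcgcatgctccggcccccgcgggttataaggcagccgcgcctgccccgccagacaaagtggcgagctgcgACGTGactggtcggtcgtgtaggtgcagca
P4ha1: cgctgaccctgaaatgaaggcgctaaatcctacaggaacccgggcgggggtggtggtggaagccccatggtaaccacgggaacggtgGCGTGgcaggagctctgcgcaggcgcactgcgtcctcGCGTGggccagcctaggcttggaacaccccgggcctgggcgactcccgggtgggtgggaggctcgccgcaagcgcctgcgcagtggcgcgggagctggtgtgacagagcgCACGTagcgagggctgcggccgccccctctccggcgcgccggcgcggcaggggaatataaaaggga
Hk3, the gene with the largest rise of the 40, held a single ACGTG in this window, while Slc16a1, which fell, held 3 ACGTG and 2 GCGTG. The word CACGTG in Slc16a1 reads ACGTG on both strands and was counted once on each. A match is only a string of letters and does not show that HIF was bound.

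The total counts per lung lay between 25396923 and 32529408, with all TNF+ totals under all TNF- totals, and 3 counts, the detection limit as far as counting error goes, corresponded to 0.0922 to 0.118 CPM, that is, counts scaled to the library total. Mouse Tnf rose (log2 fold change 3.62, adjusted p = 0.000471), and human TNF was not analysed here. TNF+ replicate 1 and TNF- replicate 1 stood apart from their groups, so results are given without them where they matter. Gm42418 alone took up 5.22% of the library of TNF+ replicate 1 and 0.0774% to 0.274% elsewhere. In TNF- replicate 1, 8 skeletal muscle markers summed to 60492 normalized counts, where the remaining TNF- lungs held 904 and 976 and the TNF+ lungs 498 to 1543. Its 8 squamous epithelium markers summed to 109460, where the remaining TNF- lungs held 506 and 954 and the TNF+ lungs 342 to 502. Markers of alveolar and airway epithelium, endothelium and macrophages were detected in all 6 lungs. Macrophage markers were higher in TNF+ lungs for 8 of 8 genes, and their summed counts ranged from 262316 to 286531 in TNF+ and from 89231 to 90369 in TNF- lungs. Endothelial markers were lower for 7 of 8 genes, with Emcn as the exception, and summed to 46247 to 53615 in TNF+ and 87377 to 104478 in TNF- lungs. Airway epithelium markers were lower for 4 of 4 genes (summed counts at 0.281 of the TNF- level), erythroid markers for 5 of 5 (0.238) and neutrophil markers for 4 of 6 (0.776, with overlap, and with Csf3r higher), and lymphocyte markers were higher for 4 of 6 (4.35). The part of these cell type markers in the results that follow was not tested.

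Among the 40, glycolytic genes were more often higher than lower in TNF+ lungs, while the genes of the hypoxia response went both ways. Of the glycolysis and pyruvate genes outside the 40, 4 of 34 were higher and 10 lower, against 24.0% and 23.4% of all genes. At an adjusted p under 0.05, 18 of the 40 genes rose in TNF+ lungs, 9 fell and 13 did not pass. Over all 19199 genes tested, 24.0% were higher and 23.4% were lower, so 47.4% of the transcriptome was called in one direction or the other, and the 67.5% called among the 40 genes is to be read against that share. The TNF+ and TNF- lungs did not overlap for 29 of the 40 genes, and for 58.7% of all genes tested. The median log2 fold change was 0.38 for the 40 genes and 0.03 for all genes, and the median absolute log2 fold change was 0.78 and 0.48. At least a 2-fold change was reached by 8 genes that rose and 7 that fell, against 10.3% and 12.2% of all genes. Among the 19 enzymes between hexokinase and lactate dehydrogenase, 11 rose and 2 fell. The plot of fold changes by role shows lower glycolysis as the role with the most rises and the HIF subunits, the transporters, upper glycolysis and the hypoxia response as roles with both directions. Without TNF- replicate 1, 25 of the 40 genes were called (16 higher, 9 lower), against 37.8% of all genes tested. Without TNF+ replicate 1 also 25 of the 40 were called, against 7347 of the 19674 genes tested in that fit.

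**Figure D1:**
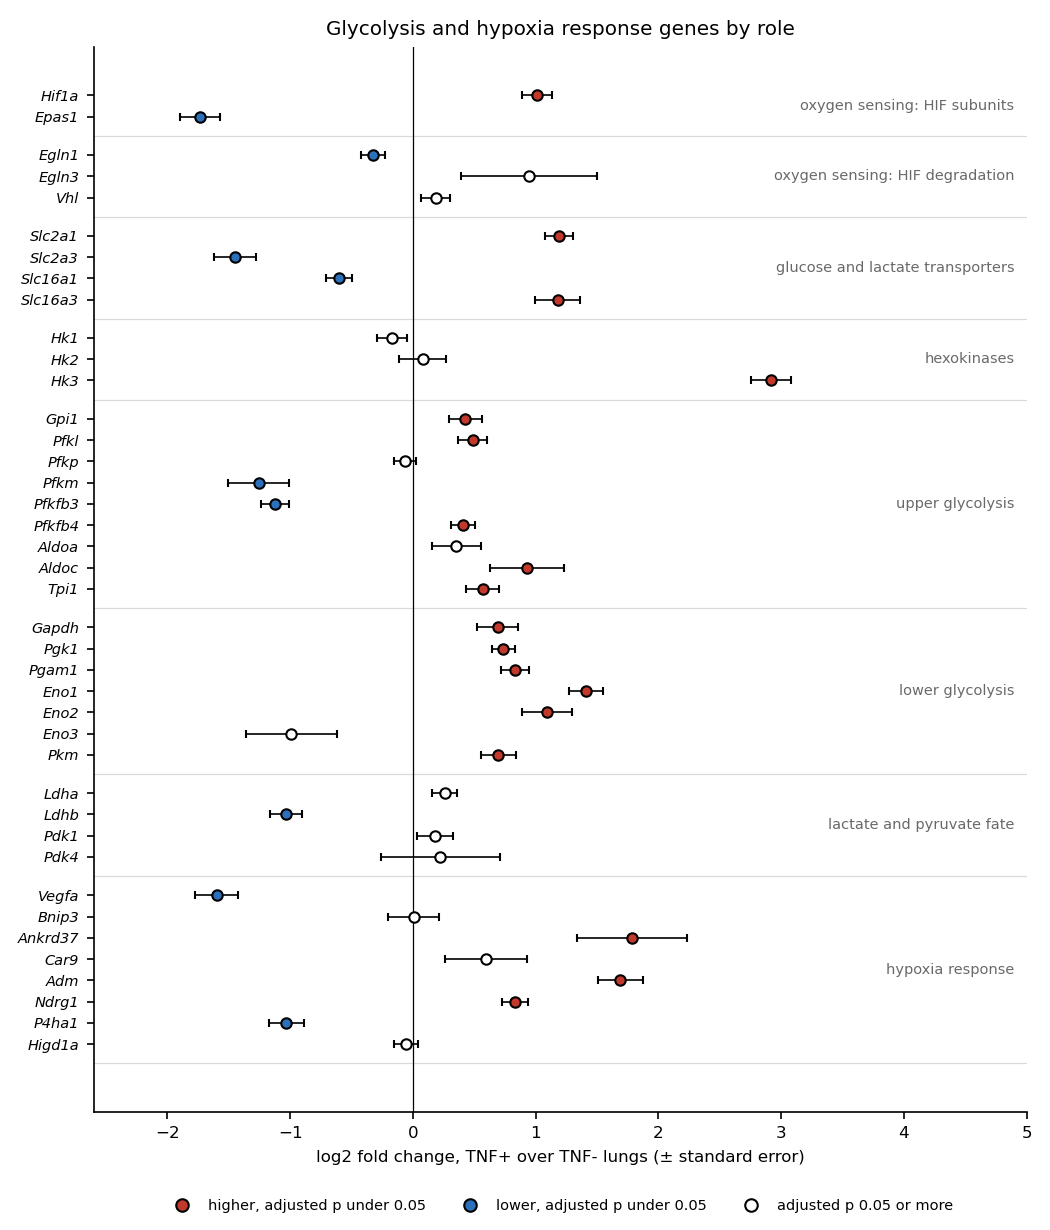
Log2 fold change of TNF+ over TNF- lungs (horizontal axis) for each of the 40 genes, grouped by role, with bars of 1 standard error from edgeR over 3 lungs per group. Red marks the 18 genes that were higher, blue the 9 that were lower and white the 13 that did not pass an adjusted p of 0.05, and Hk3 at 2.92 and Epas1 at -1.74 are the ends of the range.

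The HIF alpha subunits moved in opposite directions. Hif1a (ENSMUSG00000021109.13, chr12:73901375-73947530 of GRCm38, plus strand), the subunit tied to glycolytic genes, stood at 2919, 2496 and 2238 normalized counts in the 3 TNF+ lungs and at 1338, 1321 and 1145 in the 3 TNF- lungs. Epas1 (chr17:86753700-86833410 of GRCm38, plus strand) stood at 23822, 24498 and 26699 in TNF+ and at 97999, 78953 and 73275 in TNF- lungs. Neither gene's groups overlapped, and each TNF+ lung had about the same low Epas1 level. Hif1a rose 2.01-fold (log2 fold change 1.01 ± 0.12 SE, adjusted p = 0.000341) and Epas1 fell to 0.300 of its TNF- level (log2 fold change -1.74 ± 0.16 SE, adjusted p = 9.67e-05). Per kilobase of exon Epas1 remained the more abundant transcript in both groups, at 148 CPM per kilobase in TNF+ and 494 in TNF- lungs, against 14.3 and 7.11 for Hif1a. The share of Hif1a in their sum was nonetheless 7.36% to 10.4% in TNF+ lungs and 1.28% to 1.56% in TNF- lungs, and the sum itself was 0.324 of its TNF- value. The fall of Epas1 went along with that of the endothelial markers, whose summed counts stood at 0.506 of the TNF- level, and the part of these markers in the result was not tested.

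Of the 3 genes that mark HIF for destruction, 1 passed the test, against 47.4% of all genes. Egln1, the main oxygen-sensing hydroxylase, had 1642, 1707 and 1659 normalized counts in TNF+ and 2221, 2211 and 1854 in TNF- lungs. Its groups did not overlap and it fell slightly (log2 fold change -0.33 ± 0.10 SE, adjusted p = 0.0240). This call was lost without TNF+ replicate 1 (adjusted p = 0.0544), TNF+ replicate 2 (adjusted p = 0.0547), TNF- replicate 1 (adjusted p = 0.0616) or TNF- replicate 2 (adjusted p = 0.0835). Egln3, a hydroxylase that is itself a HIF target and is high in muscle, had 339, 302 and 320.0 in TNF+ lungs and 348, 63.3 and 88.0 in TNF- lungs. The TNF- lung with the muscle markers was the one at the level of the TNF+ lungs, and Egln3 did not pass the test over all 6 lungs (log2 fold change 0.95 ± 0.55 SE, adjusted p = 0.193). Without that lung its log2 fold change was 2.05 (adjusted p = 0.000400). Vhl, the ubiquitin ligase subunit, ranged over 614 to 757 in TNF+ and 588 to 635 in TNF- lungs and did not pass (log2 fold change 0.18 ± 0.12 SE, adjusted p = 0.221).

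Each pair of membrane transporters also split. Slc2a1, the widespread glucose transporter GLUT1, had 1415, 1537 and 1389.5 normalized counts in TNF+ and 653, 556 and 695 in TNF- lungs. Slc2a3, the high-affinity glucose transporter GLUT3, had 247, 235 and 243 in TNF+ and 807, 521 and 648 in TNF- lungs. The TNF+ lungs lay well above all TNF- lungs for the former and well below them for the latter. Slc2a1 rose 2.28-fold (log2 fold change 1.19 ± 0.11 SE, adjusted p = 9.68e-05), and Slc2a3 fell to 0.366 of its TNF- level (log2 fold change -1.45 ± 0.17 SE, adjusted p = 0.000297). Slc16a3, the lactate exporter MCT4 of glycolytic cells, had 901, 1157 and 867 in TNF+ and 421, 340.2 and 529.6 in TNF- lungs. Slc16a1, the broadly expressed MCT1, which carries lactate and pyruvate in either direction, had 427, 387 and 403 in TNF+ and 600.1, 598 and 650.5 in TNF- lungs. No groups overlapped, and the 3 TNF- lungs were close together for Slc16a1 but not for Slc16a3. Slc16a3 rose 2.26-fold (log2 fold change 1.18 ± 0.19 SE, adjusted p = 0.00132), whereas Slc16a1 fell to 0.658 of its TNF- level (log2 fold change -0.60 ± 0.11 SE, adjusted p = 0.00246).

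**Figure D2:**
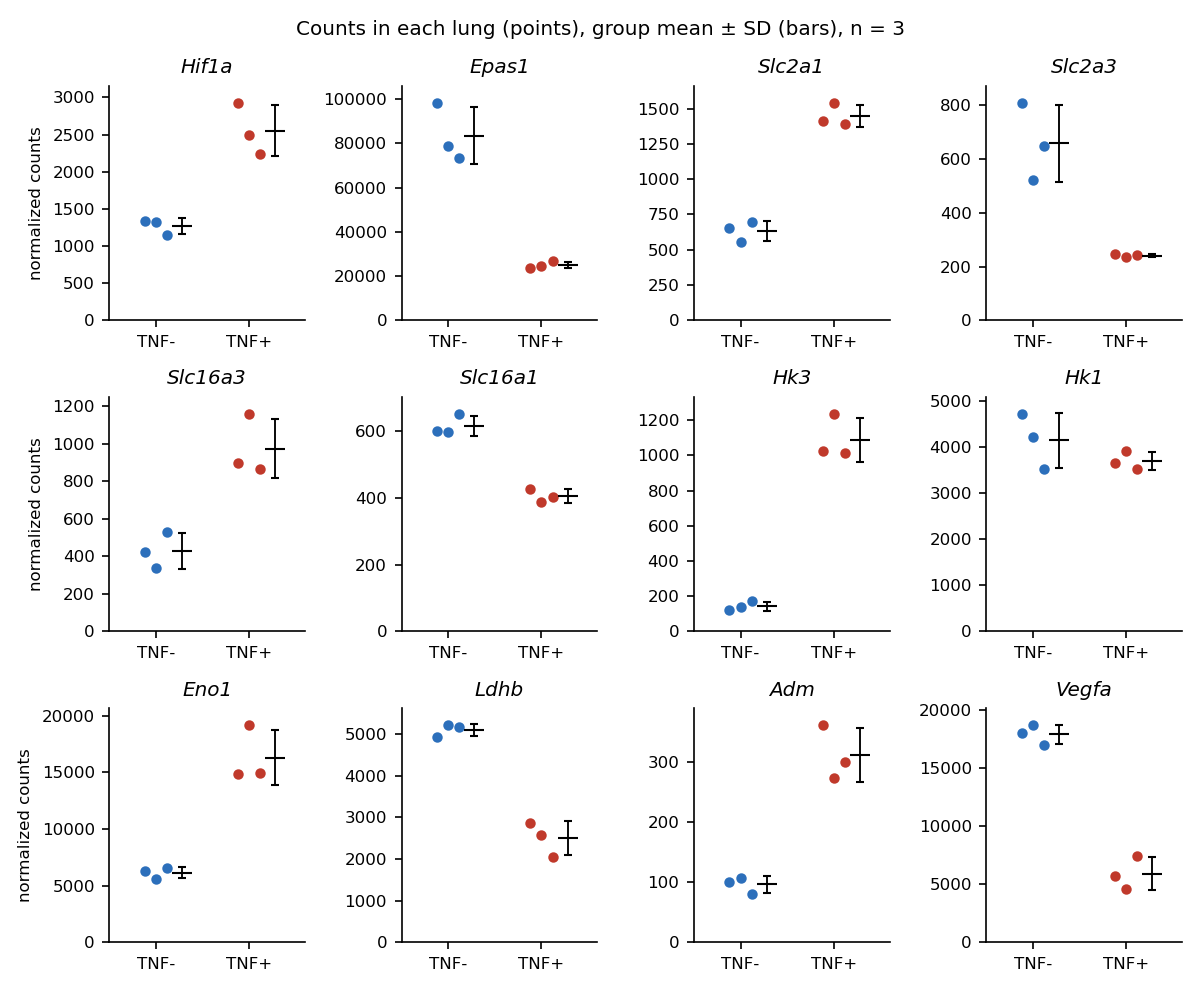
Normalized counts (vertical axis, from 0, a scale per gene) of 12 genes in each TNF- (blue) and TNF+ (red) lung, with the group mean ± SD over 3 lungs in black. The groups lie apart for every gene shown except Hk1, and the paired genes of a role (Hif1a and Epas1, Slc2a1 and Slc2a3, Slc16a3 and Slc16a1) run in opposite directions.

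Hexokinases trap glucose in the cell as glucose 6-phosphate. Hk3 (chr13:55005985-55021385 of GRCm38, minus strand), the hexokinase of myeloid cells, had 1023, 1233 and 1012 normalized counts in TNF+ and 121, 139 and 171 in TNF- lungs. The lowest TNF+ lung held over 5 times the count of the highest TNF- lung. This 7.57-fold rise (log2 fold change 2.92 ± 0.16 SE, adjusted p = 9.89e-06) was the largest among the 40 genes. Hk1, the housekeeping hexokinase, ranged over 3520 to 3908 in TNF+ and 3514 to 4707 in TNF- lungs, and Hk2, the inducible hexokinase of muscle and fat, over 579 to 721 and 441 to 723. Both overlapped between the groups and did not pass (log2 fold change -0.17 ± 0.12 SE, adjusted p = 0.293 for Hk1 and log2 fold change 0.08 ± 0.19 SE, adjusted p = 0.756 for Hk2). Macrophage markers rose alongside Hk3, from a 1.41-fold higher mean for Mertk to a 10.1-fold higher mean for Cd68, and their part in the result was not tested.

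In the rest of upper glycolysis, 5 of 9 genes rose and 2 fell, against 24.0% and 23.4% of all genes. The liver-type phosphofructokinase Pfkl, which commits the sugar to glycolysis, had 2869, 3647 and 2976 normalized counts in TNF+ and 2334, 2074 and 2358 in TNF- lungs. The muscle-type Pfkm had 739.7, 820.1 and 694 in TNF+ and 2641, 1325 and 1420.0 in TNF- lungs. Pfkl rose (log2 fold change 0.49 ± 0.12 SE, adjusted p = 0.0102) and Pfkm fell (log2 fold change -1.26 ± 0.25 SE, adjusted p = 0.00427), neither with overlap, but the highest Pfkm value belonged to the TNF- lung with the muscle markers. The platelet-type Pfkp overlapped between the groups and did not pass (log2 fold change -0.06 ± 0.09 SE, adjusted p = 0.566). Pfkfb3 and Pfkfb4 make fructose 2,6-bisphosphate, the activator of phosphofructokinase. Pfkfb3 had 2075, 2473 and 1999 in TNF+ and 4607, 5163 and 4479 in TNF- lungs. It fell to 0.460 of its TNF- level (log2 fold change -1.12 ± 0.12 SE, adjusted p = 0.000161), with the TNF- lungs above all TNF+ lungs. Pfkfb4 rose from 969, 955 and 1061 in TNF- to 1219.7, 1308 and 1425 in TNF+ lungs (log2 fold change 0.41 ± 0.10 SE, adjusted p = 0.0104), a call that was lost without TNF- replicate 1 (adjusted p = 0.0524). Triose phosphate isomerase Tpi1 rose 1.48-fold (log2 fold change 0.57 ± 0.13 SE, adjusted p = 0.00889).

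Among the other genes of these steps, Gpi1, the isomerase after hexokinase, had 14276, 16097 and 12286 normalized counts in TNF+ and 9908, 10496 and 11306 in TNF- lungs. The smallest TNF+ value lay above the largest TNF- value (log2 fold change 0.43 ± 0.13 SE, adjusted p = 0.0274). The Gpi1 call was lost without TNF+ replicate 1 (adjusted p = 0.0922), TNF+ replicate 2 (adjusted p = 0.0997), TNF- replicate 1 (adjusted p = 0.106) or TNF- replicate 2 (adjusted p = 0.0877). Aldoa, the main aldolase (303 CPM per kilobase, against 237 in TNF- lungs), overlapped between the groups (log2 fold change 0.35 ± 0.20 SE, adjusted p = 0.174). Aldoc, the brain-type aldolase, had 403, 765 and 320.0 in TNF+ and 255, 238 and 289 in TNF- lungs. Its rise (log2 fold change 0.93 ± 0.30 SE, adjusted p = 0.0334) leaned on TNF+ replicate 2, without which the log2 fold change was 0.47 (adjusted p = 0.0748). It was also lost without TNF- replicate 1 (adjusted p = 0.0847), TNF- replicate 2 (adjusted p = 0.107) or TNF- replicate 3 (adjusted p = 0.0507).

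In lower glycolysis, where ATP and NADH are made, 6 of 7 genes were higher and none lower, against 24.0% and 23.4% of all genes. Eno1 (chr4:150236721-150248879 of GRCm38, plus strand), the ubiquitous enolase, had 14847, 19135 and 14915 normalized counts in TNF+ and 6254, 5590.3 and 6536 in TNF- lungs. Every TNF+ lung was more than 2-fold above every TNF- lung, and Eno1 rose 2.66-fold (log2 fold change 1.41 ± 0.14 SE, adjusted p = 0.000128). Pgam1, phosphoglycerate mutase, had 4355, 5279 and 4216 in TNF+ and 2685, 2641 and 2458 in TNF- lungs (log2 fold change 0.83 ± 0.11 SE, adjusted p = 0.000652). Pgk1, phosphoglycerate kinase, had 4498, 4855 and 4473 in TNF+ and 2903, 2645 and 2741 in TNF- lungs (log2 fold change 0.74 ± 0.09 SE, adjusted p = 0.000399). In both genes the lungs of each group lay close together and well apart from the other group. Gapdh, often taken as a reference gene for scaling, had 19187, 23940.2 and 15877 in TNF+ and 13326, 12000.0 and 11234 in TNF- lungs, and it rose as well (log2 fold change 0.69 ± 0.17 SE, adjusted p = 0.00987). Pkm, pyruvate kinase, had 18060.1, 24346 and 18438 in TNF+ and 12627, 12509 and 12480.3 in TNF- lungs (log2 fold change 0.69 ± 0.14 SE, adjusted p = 0.00487). Its TNF- lungs lay close together (SD 77.8), while TNF+ replicate 2 was the highest. Eno2, the neuron-type enolase, rose from a mean of 162 to 346 (log2 fold change 1.09 ± 0.20 SE, adjusted p = 0.00307).

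Eno3, the muscle-type enolase, was the 1 gene of this group that did not rise. It had 667, 684 and 714 normalized counts in TNF+ and 2379, 909 and 818 in TNF- lungs. All TNF- lungs were above all TNF+ lungs, but the spread among the former was wide with TNF- replicate 1 far above the others, and the test was not passed (log2 fold change -0.99 ± 0.37 SE, adjusted p = 0.0571). Without that lung, Eno3 passed with a smaller difference (log2 fold change -0.35, adjusted p = 0.0444). It also passed without TNF- replicate 2 (-1.22, adjusted p = 0.0423) or TNF- replicate 3 (-1.26, adjusted p = 0.0195). Pfkm was called without TNF- replicate 1 too, at a log2 fold change of -0.90 (adjusted p = 0.000921). The plot of counts with and without this lung shows it as the highest TNF- value for Egln3, Pfkm, Eno3, Aldoa, Hk2 and Pdk4. Of these, Egln3 and Eno3 changed their side of the threshold without it, and Egln1, Gpi1, Pfkfb4 and Aldoc lost their calls. The part of its muscle and squamous markers in these values was not tested.

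**Figure D3:**
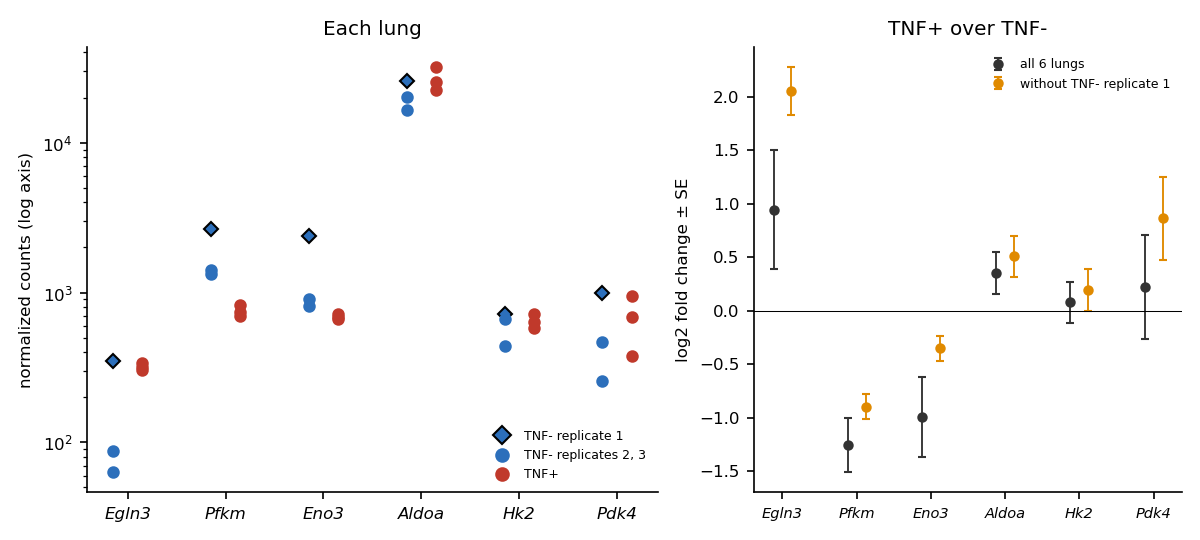
Left, normalized counts (log axis) of 6 genes in TNF- replicate 1 (diamond), the other TNF- lungs (blue) and the TNF+ lungs (red). Right, log2 fold change of TNF+ over TNF- ± SE with all 6 lungs (black) and without TNF- replicate 1 (orange), which takes Egln3 from 0.95 to 2.05 and Eno3 from -0.99 to -0.35.

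Several of these enzymes have near-identical pseudogene copies, which the counting could have split. In GENCODE M21, 27 of the 40 genes shared no window of 100 bases, the length of a read, with another gene. Pgk1 shared 51.7% of its windows, Pgam1 33.9%, Gapdh 20.9% with 84 other genes and Eno1 20.4%. Of the windows of Pkm, 9.19% were shared with Gm49759, which overlaps it in place, and 3.05% with the pseudogene Gm6560. In the table, the copies Eno1b and Gm4735 held 46.1% to 48.2% of the counts of Eno1 and its copies together, and Pgk1-rs7 and Gm5537 held 54.4% to 55.0% of those of Pgk1. For Gapdh 50 copies held 53.1% to 55.2%. Gm12671, Gm10359 and Gm14760, all copies of Gapdh, each held 1193 counts in TNF+ replicate 1 and 1093 in TNF- replicate 1, so a read may stand in the table at several loci, and these shares and the sums with copies may hold it more than once. Copies with many counts had log2 fold changes near those of their gene, at 1.42 for Eno1b, 1.40 for Gm4735, 0.75 for Pgk1-rs7, 0.73 for Gm5537 and 0.76 for Pgam1-ps2, and their own expression cannot be told apart from reads of the parent gene. Some copies with few counts lay further from their gene on either side, such as Pgam1-ps1 (0.48, not called) and, for Gapdh, Gm4654 (0.04), Gm12416 (0.07), Gm12286 (0.16), Gm3839 (1.19), Gm13292 (1.26) and Gm2445 (1.58), which were not called, and Gm3222 (1.20, adjusted p = 0.0384). With the copies' counts added to each gene, the log2 fold changes were 1.41 for Eno1, 0.74 for Pgk1, 0.70 for Gapdh, 0.81 for Pgam1 and 0.70 for Pkm, and again 18 genes were higher and 9 lower. By exon bases, the overlap in place was 15.3% of Pkm with Gm49759 and 10.2% of Pfkm with Gm26513, which was counted among its copies, both on the same strand, and 11.5% of Gpi1 with Gm26762 on the other strand.

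At the end of the pathway 1 of 4 genes for the fate of pyruvate was lower and none higher, against 23.4% and 24.0% of all genes. Ldha, the lactate dehydrogenase subunit that favours lactate production, had 9362, 10736 and 9312 normalized counts in TNF+ and 8244, 8071 and 8284 in TNF- lungs. Ldhb, the subunit of oxidative tissues, had 2856, 2576 and 2051 in TNF+ and 4938, 5209 and 5172 in TNF- lungs. Neither gene overlapped between groups, but the step in Ldha was small and did not pass (log2 fold change 0.26 ± 0.10 SE, adjusted p = 0.0742), whereas Ldhb fell to 0.488 of its TNF- level (log2 fold change -1.03 ± 0.13 SE, adjusted p = 0.000441). The pyruvate dehydrogenase kinases were spread too widely to separate the groups. Pdk1 ranged over 801 to 1104 in TNF+ and 758 to 933 in TNF- lungs (log2 fold change 0.18 ± 0.15 SE, adjusted p = 0.344), and Pdk4 over 379 to 943 and 255 to 1000 (log2 fold change 0.22 ± 0.48 SE, adjusted p = 0.729).

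Counts per kilobase were compared among the genes of one step within each lung, where library scaling cancels. The share of Hk3 among the 3 hexokinases was 34.0% to 37.6% in TNF+ lungs and 4.67% to 8.17% in TNF- lungs, and that of Hk1 was 51.0% to 52.7% against 72.2% to 81.6%. Slc2a1 took 92.2% to 93.1% of the 2 glucose transporters in TNF+ lungs and 62.6% to 68.9% in TNF- lungs. Slc16a3 took 63.7% to 71.3% of the 2 lactate transporters, against 32.1% to 40.4%. Slc2a1 and Hk1 held the largest share of their role in every lung of both groups, whereas among the lactate transporters Slc16a3 led in every TNF+ lung and Slc16a1 in every TNF- lung.

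Shares also differed without overlap in 4 further steps of glycolysis. Pfkl made up 54.7% to 58.8% of the phosphofructokinases in TNF+ lungs and 27.2% to 38.9% in TNF- lungs, and Pfkm 26.4% to 28.2% against 46.4% to 61.6%. Pfkfb4 made up 45.1% to 52.5% of its pair against 22.3% to 26.9%. Eno1 made up 85.3% to 88.3% of the enolases against 45.4% to 70.3%, and Ldha 60.9% to 68.3% of the lactate dehydrogenases against 42.4% to 44.2%. These ranges did not overlap. Nor did that of Egln3 in its pair with Egln1, at 19.3% to 21.8% in TNF+ and 3.72% to 17.5% in TNF- lungs, the highest TNF- share being that of TNF- replicate 1. Those of Hk2, Pfkp, Eno2, the aldolases and the pyruvate dehydrogenase kinases did. With the copies' counts included, the difference in the Eno1 share was 18.6 percentage points in place of 26.1, again without overlap. Summed over a step, the enolases stood at 1.78 times the TNF- mean, the glucose transporters at 1.64, the hexokinases at 1.33 and the lactate transporters at 1.25, with no overlap. The lactate dehydrogenases stood at 0.794, also without overlap, and the phosphofructokinases (0.820) and aldolases (1.29) overlapped.

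**Figure D4:**
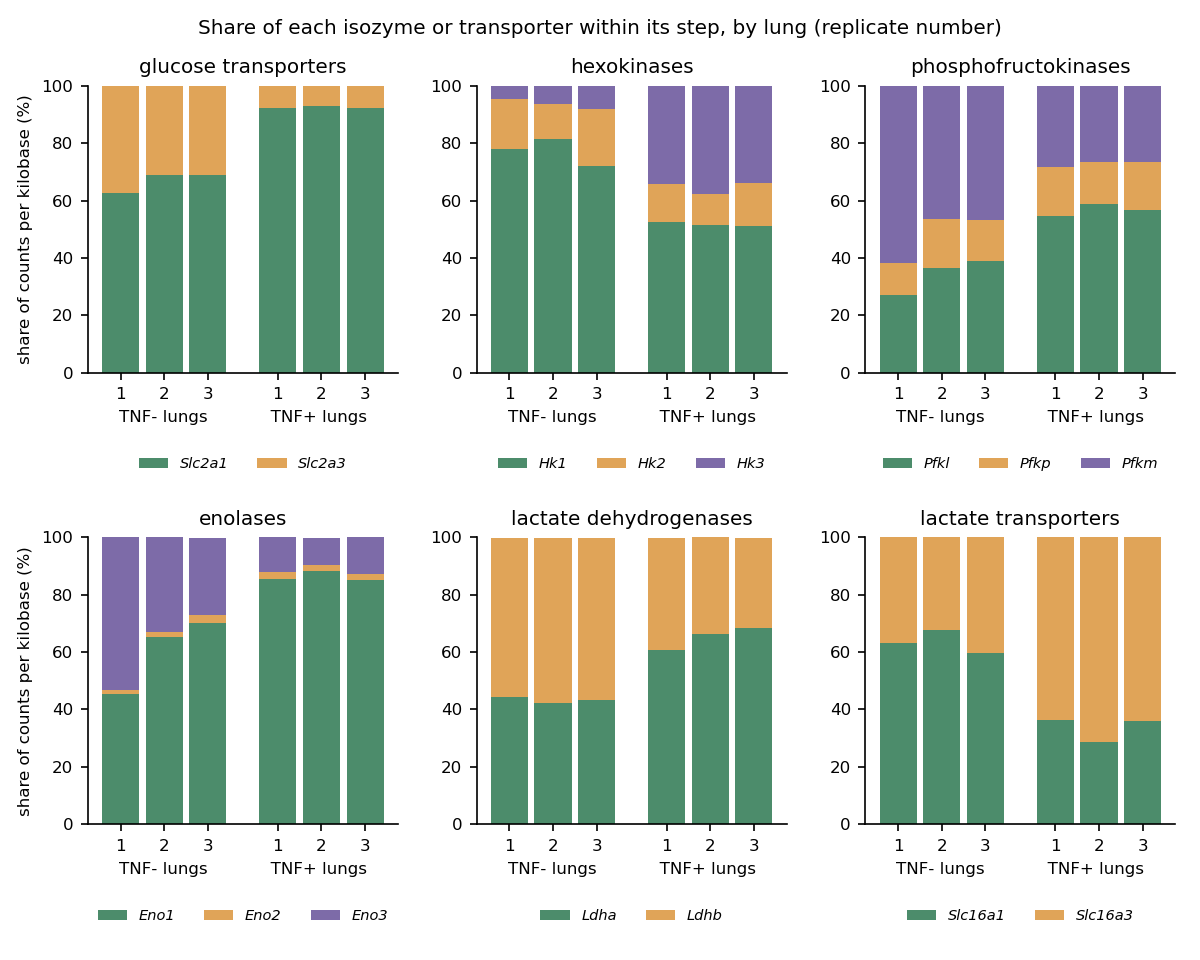
Share of each gene in the summed counts per kilobase of its step (vertical axis, percent) for every lung, with 3 TNF- lungs on the left and 3 TNF+ lungs on the right of each panel. Hk3, Slc2a1, Pfkl, Eno1, Ldha and Slc16a3 take a larger share in every TNF+ lung than in any TNF- lung.

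The hypoxia response outside glycolysis held genes called in both directions, as did all genes tested (24.0% higher, 23.4% lower). Of 8 genes, 3 rose, 2 fell and 3 did not pass. Vegfa (chr17:46016993-46032369 of GRCm38, minus strand), the growth factor that sustains lung capillaries and is among the best known HIF targets, had 5689.5, 4623 and 7426 normalized counts in TNF+ and 17995, 18685 and 17036 in TNF- lungs. The TNF- lungs were close together, and even the highest TNF+ lung was far below them. Vegfa fell to 0.330 of its TNF- level (log2 fold change -1.60 ± 0.18 SE, adjusted p = 0.000215), the steepest fall of the 40 genes after that of Epas1. P4ha1, a subunit of the hydroxylase that matures collagen, had 1171, 1177 and 1301 in TNF+ and 2862, 2636 and 1966 in TNF- lungs, again without overlap (log2 fold change -1.03 ± 0.14 SE, adjusted p = 0.000694). Markers of the alveolar epithelium, a main source of Vegfa in the lung, were lower for 4 of 8 genes, and their summed counts, most of them from Sftpc, were 495351 to 634114 in TNF+ and 743008 to 887380 in TNF- lungs. Among those that fell were the type 1 cell markers Ager, to 0.378 of its TNF- mean, and Hopx, to 0.331. Fibroblast markers were lower for 4 of 6 genes, with sums of 25009 to 26285 and 35293 to 55334. The part of these markers in the falls of Vegfa and P4ha1 was not tested.

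Adm, adrenomedullin, a peptide that widens vessels, had 361, 274 and 300.2 normalized counts in TNF+ and 101, 107 and 80.9 in TNF- lungs. Ankrd37, a small ankyrin repeat protein, had 72.5, 299.9 and 203 in TNF+ and 50.6, 52.7 and 64.0 in TNF- lungs. Ndrg1, a stress-induced gene, had 3266, 3573 and 3111 in TNF+ and 2057, 1805 and 1717 in TNF- lungs. All 3 rose, 3.23-fold for Adm (log2 fold change 1.69 ± 0.18 SE, adjusted p = 0.000211), 3.44-fold for Ankrd37 (log2 fold change 1.78 ± 0.45 SE, adjusted p = 0.0124) and 1.78-fold for Ndrg1 (log2 fold change 0.83 ± 0.11 SE, adjusted p = 0.000445). The TNF+ lungs lay close together for Ndrg1 but differed widely for Ankrd37, where replicate 1 lay only a little above the TNF- lungs. Of the Ankrd37 exon bases, 22.7% also lie in Lrp2bp on the other strand, and the strand setting of the counting is not given in the sources used here. Car9, the carbonic anhydrase that acidifies the space around hypoxic cells, was low, at 63.3, 100.3 and 67.0 in TNF+ and 32.5, 48.9 and 71.1 in TNF- lungs, and overlapped between the groups (log2 fold change 0.60 ± 0.33 SE, adjusted p = 0.173). The mitochondrial genes Bnip3, a mitophagy receptor, and Higd1a, a respiratory chain factor, overlapped too (log2 fold change 0.01 ± 0.20 SE, adjusted p = 0.985 for Bnip3 and log2 fold change -0.06 ± 0.10 SE, adjusted p = 0.673 for Higd1a).

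Other genes of these pathways were read from 6 lists, of which 124 genes were tested, 25 of them higher and 29 lower in TNF+ lungs (median log2 fold change 0.03), and 43.5% were called in either direction against 47.4% of all genes. The remaining glycolysis and pyruvate genes, the isozymes and transporters that are not among the 40, had 4 of 34 higher and 10 lower, against 24.0% and 23.4% of all genes, and 20 did not pass (median log2 fold change -0.01). The gene of this list that rose furthest was Slc2a6, a sugar transporter found in macrophages and other leukocytes, which rose from 115, 101 and 177 normalized counts in TNF- to 2109.7, 2053 and 1998 in TNF+ lungs (log2 fold change 3.97 ± 0.21 SE, adjusted p = 7.71e-06). Mpc1 of the mitochondrial pyruvate carrier rose less (0.64), as did Gpd2 (0.33) and Dld (0.32). The genes that fell furthest were Pck1 (-2.85), a gluconeogenic enzyme, the muscle mutase Pgam2 (-2.16) and the transporters Slc2a4 (-1.70), of muscle and fat, and Slc2a12 (-1.65). Pck1 had 18.5, 8.27 and 94.4 in TNF+ and 356, 207 and 336 in TNF- lungs, and its call was lost with robust dispersion (adjusted p = 0.0569). Without TNF+ replicate 3, the highest of its group, the log2 fold change was -4.53 (adjusted p = 0.000419). Adipocyte markers summed to 125, 105 and 921 in the same TNF+ lungs and to 1184, 884 and 1785 in the TNF- lungs, with 1 of 3 tested genes lower, and their part in the Pck1 result was not tested. Pgam2 had its highest count in TNF- replicate 1, and without that lung its log2 fold change was -1.55 (adjusted p = 0.000914). The Gpd2 and Dld calls were lost without some lungs, at the most without TNF+ replicate 1 (adjusted p = 0.145 and 0.127).

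The pentose phosphate pathway, which branches off at glucose 6-phosphate to make NADPH and ribose, had 7 of 11 genes higher and 2 lower (median log2 fold change 0.60). Against this, 24.0% of all genes were higher. Pgd, which makes NADPH, had 8560.0, 9970.1 and 7411 normalized counts in TNF+ and 3509, 3592 and 3676 in TNF- lungs (log2 fold change 1.27 ± 0.13 SE, adjusted p = 0.000132). G6pdx, the entry enzyme and also a source of NADPH, had 4417, 4746 and 3903 in TNF+ and 1978, 1926 and 1841 in TNF- lungs (log2 fold change 1.19 ± 0.10 SE, adjusted p = 6.68e-05). Neither overlapped between the groups, while H6pd, the related dehydrogenase of the endoplasmic reticulum, named after its values were seen, did and was not called (log2 fold change -0.36, adjusted p = 0.108). Taldo1 (0.88) and Rbks (0.94) rose as well, whereas Prps1 (-0.46) and Prps2 (-0.46), which make the precursor of nucleotides, fell. The Rbks and Prps2 calls were lost without TNF+ replicate 2 (adjusted p = 0.0747 and 0.10) and without 3 other lungs each.

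Of the glycogen genes, 8 of 18 were lower and 3 higher, against 23.4% and 24.0% of all genes. Pygm, the muscle glycogen phosphorylase, had 429, 435 and 424 normalized counts in TNF+ and 5929, 2177 and 1677 in TNF- lungs. The TNF+ lungs lay close together, and TNF- replicate 1 was the highest (log2 fold change -2.93 ± 0.44 SE, adjusted p = 0.00110). Without that lung the log2 fold change was -2.19 (adjusted p = 4.05e-05). Ppp1r3c (-1.57), Phkb (-0.70) and the synthase Gys1 (-0.60) fell, and the liver phosphorylase Pygl (0.79), Gbe1 (0.52) and Phka2 (0.49) rose. The Gbe1 call was lost without 4 of the lungs, with the highest adjusted p without TNF+ replicate 2 (0.110). Skeletal muscle markers fell for 3 of 7 tested genes, and the log2 ratio of their summed counts was -0.15 without TNF- replicate 1. Cardiac muscle markers were lower for 6 of 6 genes, with sums of 8424 to 10313 in TNF+ and 28250 to 37714 in TNF- lungs, and the part of both lists in the falls of the muscle isozymes Pygm, Pgam2 and Pfkm was not tested.

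In the tricarboxylic acid cycle, 3 of 16 genes were higher and 1 lower (median log2 fold change 0.02), against 24.0% and 23.4% of all genes. The 3 that rose all encode subunits of succinate dehydrogenase, Sdhd (0.89), Sdhb (0.58) and Sdhc (0.35), though the Sdhc call was lost without 3 of the lungs (highest adjusted p = 0.120, without TNF- replicate 1). Ogdh, the oxoglutarate dehydrogenase subunit, fell (-0.70). Among partners and regulators of HIF, 1 of 15 was higher and 2 were lower, a smaller share than the 47.4% called over all genes. Arnt2, a partner of the alpha subunits, rose from a low level (1.74), and Arnt, the usual partner (-0.32), and Hif1an, the asparagine hydroxylase that silences HIF (-0.71), fell. The Arnt call was lost without 3 of the lungs (highest adjusted p = 0.0695, without TNF+ replicate 2).

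Further textbook HIF targets again split, with 7 of 30 higher and 6 lower. Hmox1, heme oxygenase, had 12426, 17872 and 13667 normalized counts in TNF+ and 763, 719 and 778 in TNF- lungs, the largest rise in these 6 lists (log2 fold change 4.28 ± 0.17 SE, adjusted p = 3.19e-06). Nos2, the inducible nitric oxide synthase (1.78), and the chemokine receptor Cxcr4 (1.30) also rose. Hilpda, a lipid droplet protein, had 283, 266 and 200.1 in TNF+ and 1059, 943 and 907 in TNF- lungs (log2 fold change -1.96 ± 0.15 SE, adjusted p = 4.24e-05). Its groups lay far apart, and Stbd1 (-1.80), the Vegfa receptor Flt1 (-1.63) and the collagen lysyl hydroxylase Plod2 (-1.29) fell with it. Neither direction of this list lay far from the share among all genes tested (24.0% higher, 23.4% lower), as the plot of genes called in each list shows.

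**Figure D5:**
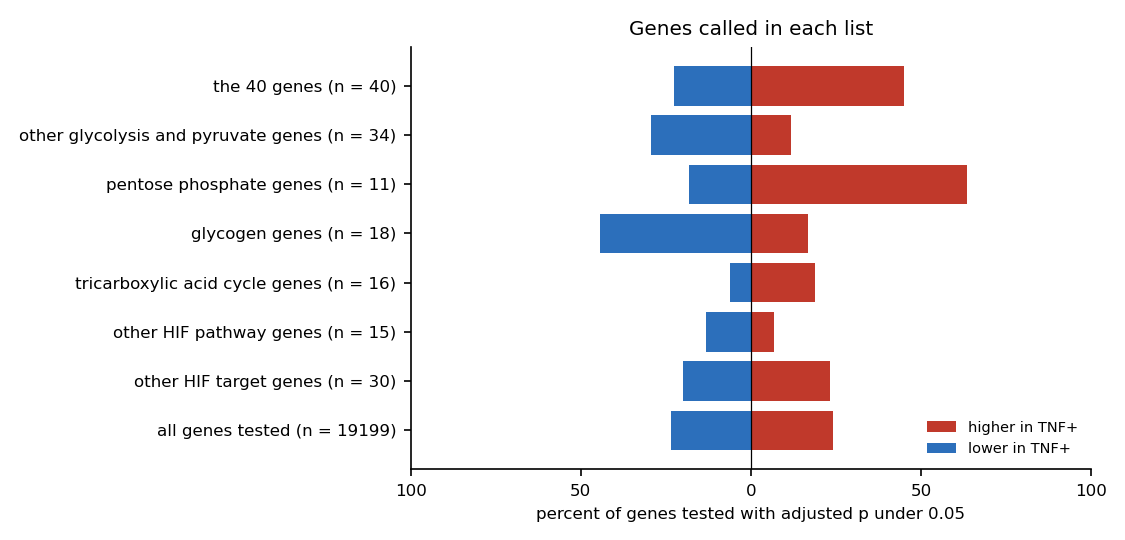
Percent of tested genes called higher (red, to the right) or lower (blue, to the left) in TNF+ lungs for the 40 genes, 6 other lists and all 19199 genes tested, with the number tested in brackets. The pentose phosphate genes (7 of 11 higher) and the 40 genes (18 higher) reach further to the right than all genes together, and the glycogen genes (8 of 18 lower) and the other glycolysis and pyruvate genes (10 of 34 lower) further to the left.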

How the data were processed

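RNA was taken from the whole lung of 3 TNF+ and 3 TNF- mice and made into stranded poly(A) libraries. The submitters' processing notes name Trimmomatic 0.36, STAR 2.5.2b, featureCounts and the build GRCm38.p5, and the study's methods speak of unique mapping, while the strand setting and the annotation release are not given in the sources used here. The authors deposited raw counts of reads per gene symbol and lung, without normalization, and all 6 columns were used.

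Genes were tested with the quasi-likelihood test of edgeR (version 4.0.16, R version 4.3.3) after filterByExpr and TMM normalization, in a model of genotype alone, and p-values were adjusted by Benjamini-Hochberg over the 19199 genes tested, at a threshold of 0.05. The standard error is the log2 fold change divided by the square root of F. To normalize, each count was divided by its library's TMM-effective size and brought back to the mean of these sizes. No list was given a test of its own. Levels per kilobase used the union of exons in GENCODE M21, which held 47313 of the 49568 symbols. The programs were tested on simulated data.

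All 40 genes are reported. From each further list the text names up to 4 genes higher and 4 lower with the largest change among those past the threshold, provided the groups did not overlap and the mean log2 CPM reached 1. Of the genes so named, 1 is not reported here. The 40 genes and the lists were chosen with earlier results of these data known. The replicate numbers come from the labels, same-numbered mice are different animals, and the p-values measure the spread between these mice. Alternatives were DESeq2 (version 1.42.0), limma-voom (version 3.58.1), other scalings and filters, robust dispersion, a replicate block, each lung left out, a log2 fold change cutoff of 1 in either direction, the longest transcript as length and, added after seeing the data, the counts of near-identical copies.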

Additional observations from a re-analysis of the deposited data

How the results depend on the processing

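At 25396923 to 32529408 counts per lung, the spread between mice rather than counting error sets the precision, and genes near 3 counts cannot be compared. A log2 fold change cutoff of 1 in either direction kept 15 of the 40 genes (8 higher, 7 lower), 22 genes of the other pathway lists (8 higher, 14 lower) and 4320 of all genes (1980 higher, 2340 lower). Every other alternative called 24 to 28 of the 40. Over all genes, these alternatives called 7347 to 9164, with 17131 to 34744 tested. A replicate block left 7686 genes and 24 of the 40, without Egln1, Gpi1 and Aldoc. Same-numbered mice did not deviate together (correlations across genes -0.15, -0.0043 and -0.24). These values showed no pairing by number, but so few lungs cannot exclude it. Pfkfb4 was lost with total counts only and Aldoc with limma-voom, which called Egln3 (log2 fold change 1.36). Eno3 was called with total counts only, with at least 10 counts in every lung and without a filter. Among the other pathway genes, Pck1 was lost with robust dispersion, Gpd2 with DESeq2, Gpd2, Dld, Sdhc and Arnt with total counts only, Gpd2 and Dld without a filter and Arnt with the replicate block.

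Bnip3, near 0 throughout, took the other sign with DESeq2 (-0.024), with limma-voom (-0.016), with size factors of DESeq2 (-0.019), with total counts (-0.024), without a filter (-0.0016), with the replicate block (-0.018) and with the copies added (-0.012). With lungs left out in turn, the log2 fold change ranged from -0.25 to 0.14 for Bnip3, from -0.11 to 0.19 for Hk2 and from -0.14 to 0.86 for Pdk4. The share of Pdk4 differed by -5.93 to 12.5 percentage points over these fits, and the log2 ratio of summed markers ran from -5.38 to -0.15 for skeletal muscle and from -7.09 to -0.85 for squamous epithelium. With the longest transcript as length, the shares of Hk1, Hk3 and Eno2 differed by -20.6, 21.6 and -0.031 percentage points. Only these reversed or moved by at least the larger SD of the groups. The difference in the Eno1 share was also smaller with this length, within its wide TNF- SD of 13.2 percentage points. The exon union of Eno1 is 5379 bases and its longest transcript 2027. Sums over a step were not recomputed with this length. The cause of these movements was not tested.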
